A study of Mus musculus with 4 samples.

Results

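The 34 interferon-stimulated genes described here were chosen by name, and all 34 are among the 32285 features of the single-cell count tables. Their levels were measured in small-intestinal epithelial cells of mice aged 25 weeks. The epithelium was released with EDTA, digested to single cells and sorted by flow cytometry with DAPI and antibodies to the epithelial antigen CD326, to CD45 and CD31 and to TER-119, then captured with the 10x Chromium 3′ kit. The 2 genotypes had 2 libraries each. Wild type mice were compared with mice that carry the TrnA G5081A point mutation, which lies in the alanine tRNA encoded by mitochondrial DNA. Labels give a load of 77% for mutant 1 and of 81% for mutant 2. Wild type 1 and mutant 1 were counted with Cell Ranger 7.0.0 and are called set A, and wild type 2 and mutant 2, titled male, were counted with Cell Ranger 7.1.0 and are called set B. The title of the series names acute colitis, but no label of a sample names a colitis treatment. No label says that libraries of a genotype came from separate animals, and a p-value here covers no more than the variation among the 4 libraries, which may be technical.

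Interferons are secreted signals of antiviral and antibacterial defence. Type I and type III interferons act through JAK kinases on a complex that holds STAT2 and IRF9 and binds the interferon-stimulated response element (ISRE) in promoters, while type II interferon acts on the gamma-activated site (GAS). In the intestinal epithelium type III interferon is known as a main antiviral signal, and a basal expression of its target genes is known to be kept up by the microbiota. Several members are targets of more than 1 interferon type.

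The promoters were read because the members are named for this shared control. RefSeq promoter windows (GRCm38.p6, 250 bases before to 50 bases after the start) were held for 28 members, all but Oas2, Rtp4, Usp18, Iigp1, Parp9 and Parp14. The letters GAAANNGAAA, the core of the ISRE, were found on either strand in 16 of the 28 (57.1%), against 3.99% of all 27025 genes with windows of the same length. The letters TTCNNNGAA of the GAS were found in 6 of the 28 (21.4%), against 9.55% of all genes, and 4 members (14.3%) held both, against 0.614%. In the main clusters described below, 11 of 33 members were over 1.5-fold higher in the mutant enterocytes of both sets, against 1.21% of all genes. Under the other clusterings given below the number was 7, 4 and 3. Of the 11 members, 8 had a promoter window. The 6 of these that hold the ISRE core are printed below and were chosen after those values were seen, while Ifit2 and Cmpk2 held no core in their windows. Each line runs 5′ to 3′ in the direction of the gene, from 200 bases to 1 base before the start, with ISRE cores on either strand and GAS letters in capitals. Where the core lies on the other strand, the printed capitals are its reverse complement. The windows are Isg15 at chr4:156200819-156201018 on the minus strand, Ifit1 at chr19:34640689-34640888 on the plus strand, Ifit3 at chr19:34583329-34583528 on the plus strand, Rsad2 at chr12:26456453-26456652 on the minus strand, Oas1a at chr5:120907526-120907725 on the minus strand and Bst2 at chr8:71537473-71537672 on the minus strand.
Isg15: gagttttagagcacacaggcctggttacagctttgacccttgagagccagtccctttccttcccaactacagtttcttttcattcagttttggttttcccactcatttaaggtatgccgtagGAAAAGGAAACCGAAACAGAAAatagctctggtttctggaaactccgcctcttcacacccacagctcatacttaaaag
Ifit1: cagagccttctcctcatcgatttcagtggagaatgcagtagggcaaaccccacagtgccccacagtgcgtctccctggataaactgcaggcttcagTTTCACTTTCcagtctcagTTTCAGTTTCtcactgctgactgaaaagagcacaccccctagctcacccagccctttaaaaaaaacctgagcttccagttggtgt
Ifit3: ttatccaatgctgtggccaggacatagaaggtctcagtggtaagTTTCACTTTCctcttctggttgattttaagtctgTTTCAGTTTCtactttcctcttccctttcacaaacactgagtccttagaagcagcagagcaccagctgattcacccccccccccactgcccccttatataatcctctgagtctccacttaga
Rsad2: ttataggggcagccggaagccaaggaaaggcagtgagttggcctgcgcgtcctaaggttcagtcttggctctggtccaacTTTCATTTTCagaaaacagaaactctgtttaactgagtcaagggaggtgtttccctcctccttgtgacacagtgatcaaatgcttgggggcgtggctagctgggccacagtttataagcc
Oas1a: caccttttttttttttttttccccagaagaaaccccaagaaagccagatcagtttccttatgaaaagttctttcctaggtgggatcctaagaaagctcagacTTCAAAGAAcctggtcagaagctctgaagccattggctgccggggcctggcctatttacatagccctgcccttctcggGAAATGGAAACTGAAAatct
Bst2: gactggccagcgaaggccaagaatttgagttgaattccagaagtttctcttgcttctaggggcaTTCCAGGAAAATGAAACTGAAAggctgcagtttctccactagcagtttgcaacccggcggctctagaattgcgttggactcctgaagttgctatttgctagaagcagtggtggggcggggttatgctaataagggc
In Isg15 the core occurred 3 times in overlap, with first bases 78, 72 and 66 bases before the start. Ifit1 held it at 104 and 85 bases and Ifit3 at 156 and 122 bases before the start, in both genes on the strand opposite to the gene. Oas1a and Bst2 held an overlapping pair of cores, and a GAS that in Bst2 overlaps the first core. Matching letters describe these windows and show no binding.

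The libraries held 5974, 13805, 12398 and 12399 barcodes (set A wild type, set A mutant, set B wild type, set B mutant, in the order kept for every group of 4 values) and 99772712 to 127796409 UMIs. After filtering, 4242, 10000, 7323 and 7588 epithelial cells remained, with median depths of 20486 UMIs in wild type 1 and 9468 to 10853 in the others. Clusters were made without the members and other interferon genes and named from markers. This gave enterocytes (578, 753, 2243 and 2022 cells), crypt cells, which join stem-like and cycling-like clusters (923, 2384, 1760 and 1862), goblet (1028, 1959, 961 and 822), Paneth (44, 305, 323 and 276), tuft (37, 76, 104 and 119) and enteroendocrine cells (118, 271, 131 and 106), and 8 clusters without a name. Each class name rests on markers and means cells like that type. Cycling-like cells lay mostly in 1 cluster in set A and in another in set B. Library pairs shared 26 to 60 barcodes. A cluster of 40, 62, 14 and 35 lymphocytes was set aside.

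In all epithelial cells together, the 2 sets differed in direction. In set B all 34 members were higher in the mutant library, with a median log2 ratio of 0.89, and 26 were over 1.5-fold higher, against 4.66% of all genes (none was over 1.5-fold lower, against 6.41%). In set A 26 of 34 were lower in the mutant library, with a median of -0.17. There 5 members were over 1.5-fold lower, against 6.7% of all genes, and 1, Cxcl10, was over 1.5-fold higher, against 4.31%. Over all genes the medians were -0.0046 (set A) and -0.0023 (set B). No member was over 1.5-fold higher in both sets, against 0.722% of all genes. For 21 members the 95% counting intervals lay below 0 in set A and above 0 in set B. These intervals cover counting error only and are narrow at this depth. The share of all genes with this pattern was not computed, so the 21 are not read as a trait of the members. Each set holds 1 library per genotype, so the difference between sets was not tested. The Cell Ranger version, the label male and any other difference between the sets cannot be told apart.

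Mutant 2 was the highest of the 4 libraries for 30 of 34 members and wild type 2 the lowest for 23. Both mutant libraries were above both wild type libraries for 6 members (Ifit1, Ifit3, Rtp4, Usp18, Trim30a and Rnf213), against 9.05% of all genes, and below both for none, against 10.4%. The edgeR quasi-likelihood test over the 4 libraries called 0 of 16733 genes between genotypes at an adjusted p under 0.05 (0.0% of genes), and so no member. At an unadjusted p under 0.05 it had 102 genes and 0 members, and DESeq2 called 8 genes and 0 members. With the set as a replicate block edgeR called 10 genes (0.0598%), none of them a member. The members with the smallest unadjusted p were Ifit1 (log2 1.04, SE 0.41), Rnf213 (0.51, SE 0.22) and Ifit3 (0.87, SE 0.39), each with an edgeR adjusted p of 1.000. In these sums over all epithelial cells, fewer expressing cells and less RNA per cell cannot be told apart.

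**Figure D1:**
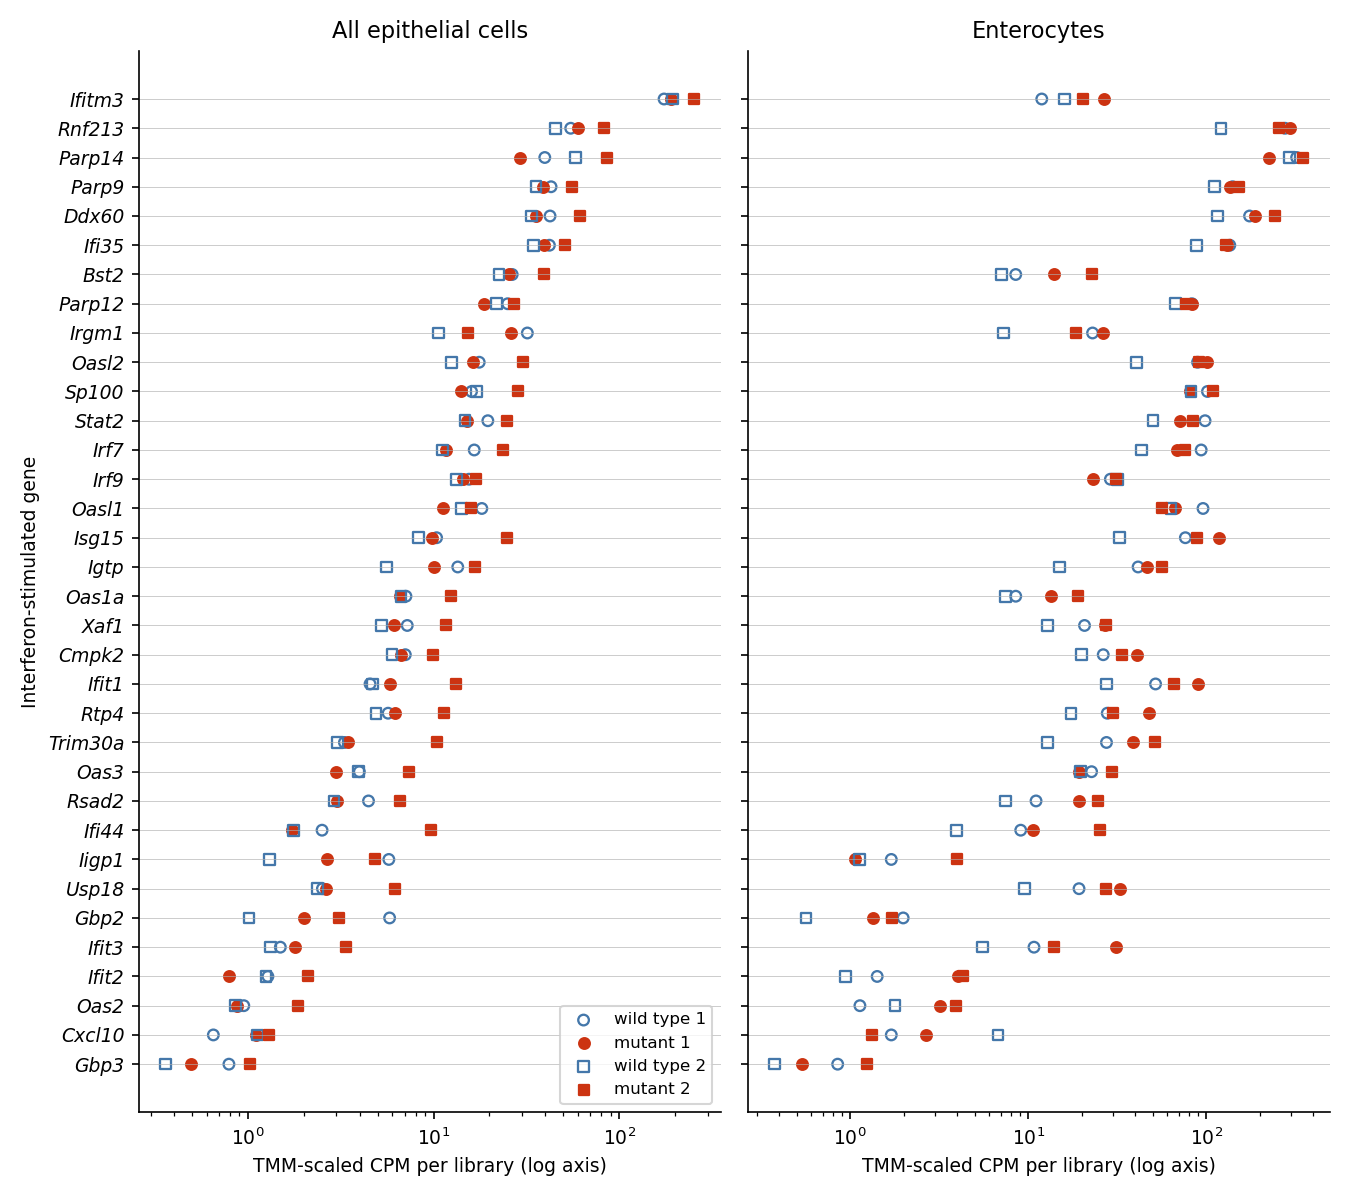
TMM-scaled CPM (log axis) of the 34 genes in each library, in all epithelial cells and in enterocytes, with open blue symbols for wild type, filled red for mutant, circles for set A and squares for set B. In all epithelial cells mutant 2 is the highest library for 30 genes, while in enterocytes both mutant libraries lie above both wild type libraries for 18 genes.

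Irf7, Stat2, Irf9, Usp18 and Isg15, which carry or limit the interferon signal, were each lowest in wild type 2. Levels are given as TMM-scaled CPM (CPM, the UMIs of a gene relative to all UMIs of the library, scaled by the trimmed mean of M-values), and since counts come from transcript ends they are compared between libraries, not between genes. Irf7, the transcription factor that amplifies interferon production, measured 16.6, 11.7, 11.2 and 23.6 in all epithelial cells. It was lower in mutant 1 than in wild type 1 (log2 -0.51 (-0.62 to -0.40), 95% counting interval in parentheses) and higher in mutant 2 than in wild type 2 (1.08 (0.97 to 1.19)). Stat2, a subunit of the ISRE-binding complex, measured 19.6, 15.2, 14.8 and 24.9, and its DNA-binding partner Irf9 measured 15.5, 14.4, 13.3 and 17.0. The genotypes overlapped for all 3 genes, with wild type 1 between the mutant libraries. Usp18, the protease that removes ISG15 from proteins and dampens receptor signalling, measured 2.52, 2.64, 2.37 and 6.24, which put mutant 2 2.64-fold above wild type 2 while mutant 1 and wild type 1 differed within counting error (0.07 (-0.19 to 0.33)). Isg15, the ubiquitin-like modifier, measured 10.4, 9.79, 8.32 and 24.8. Here too mutant 2 stood alone, 2.98-fold above wild type 2, while mutant 1 and wild type 1 did not differ beyond counting error (log2 -0.09 (-0.21 to 0.04)).

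The IFIT genes, whose proteins bind viral RNA, split. Ifit1 measured 4.55, 5.81, 4.70 and 13.2 and was higher in the mutant library of both sets, by 0.35 (0.17 to 0.54) and 1.49 (1.33 to 1.66). Ifit3, its partner, measured 1.5, 1.80, 1.33 and 3.36, with set A within counting error. Ifit2 measured 1.28, 0.795, 1.25 and 2.12, so mutant 1 was the lowest library and mutant 2 the highest.

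OAS enzymes make the 2-5A signal that activates RNase L, and the members of the OAS family moved unequally. Oas1a measured 7.1, 6.60, 6.68 and 12.4, Oas2 0.951, 0.874, 0.856 and 1.87 and Oas3 3.98, 2.97, 3.95 and 7.35. For each of these mutant 2 was the highest library and the other 3 lay below it, mutant 1 lowest for Oas1a and Oas3, with log2 ratios in set B of 0.89, 1.13 and 0.89. Oasl2, an OAS-like gene, measured 17.6, 16.4, 12.5 and 30.3. Oasl1, an inhibitor of Irf7 translation, measured 18.2, 11.3, 14.1 and 15.9 and was the member with the smallest ratio in set B (0.18) while mutant 1 was lowest.

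Among direct antiviral effectors, Bst2 (tetherin, which holds budding virus at the membrane) measured 26.5, 25.5, 22.6 and 39.2. Rsad2 (viperin, which makes a chain-terminating nucleotide) measured 4.46, 3.04, 2.92 and 6.63, and its genomic neighbour Cmpk2, a mitochondrial nucleotide kinase, 7.05, 6.70, 5.97 and 9.97. All 3 were highest in mutant 2, and in set A only Rsad2 lay outside counting error, at -0.56 (-0.77 to -0.34). Ddx60, a helicase that aids RNA sensing, measured 42.4, 35.7, 33.7 and 61.3, and Rtp4, a chaperone-like protein with antiviral activity, 5.69, 6.23, 4.90 and 11.4. Ifitm3, which blocks virus entry at endosomes, measured 175, 191, 194 and 254 and had small ratios of the same sign in both sets (0.13 and 0.39).

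The interferon-inducible GTPases, which attack the vacuoles of intracellular pathogens and are classical targets of type II interferon, included 3 members that crossed by over 1.5-fold in both directions. Gbp2 measured 5.80, 2.01, 1.01 and 3.11, that is -1.53 (-1.77 to -1.29) for set A against 1.62 (1.27 to 1.98) for set B. Iigp1 measured 5.75, 2.65, 1.31 and 4.82 (-1.12 and 1.88) and Gbp3 0.790, 0.491, 0.360 and 1.03 (-0.69 and 1.51). Wild type 1 was the highest library for Gbp2 and Iigp1, and wild type 2 the lowest for all 3. Igtp measured 13.5, 10.1, 5.56 and 16.7. Irgm1, a regulator of the other GTPases, measured 32.0, 26.2, 10.7 and 15.3, where both libraries of set A lay above both of set B whatever the genotype.

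Among the ADP-ribosyltransferases the log2 ratios in set B ran from 0.32 (Parp12) to 0.65 (Parp9). Parp9, Parp12 and Parp14, which modify proteins or RNA with ADP-ribose, measured 43.0, 38.9, 35.7 and 56.1, then 25.1, 18.7, 21.8 and 27.2, then 39.8, 29.2, 58.1 and 86.2. The giant ligase Rnf213 measured 54.8, 59.9, 45.5 and 83.3 and was higher in both mutant libraries (0.13 and 0.87). Trim30a, a TRIM protein that restrains inflammatory signalling, measured 3.31, 3.48, 3.03 and 10.5, a 3.46-fold difference in set B with set A within counting error. Of the remaining members, Ifi44 had the largest ratio of any member in set B: it measured 2.51, 1.72, 1.76 and 9.75, with 2.47 (2.22 to 2.73) there and -0.55 (-0.84 to -0.26) in set A. The nuclear body protein Sp100, the apoptosis factor Xaf1 and Ifi35 were lower in mutant 1 and higher in mutant 2, with ratios in set B of 0.75, 1.16 and 0.57. Cxcl10, the chemokine that draws in CXCR3+ T cells, rested on 61, 112, 100 and 108 UMIs in the 4 libraries.

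In enterocytes, the absorptive cells of the villus, most measured members were higher in the mutant library of set B, while the count in set A moved with the way the enterocytes were clustered. Of the members measured, 21 of 33 were higher in the mutant library of set A (median log2 ratio 0.19) and 31 of 34 in set B (median 1.11). In set A 13 were over 1.5-fold higher, against 11.7% of all genes, and 1 over 1.5-fold lower, Iigp1, against 9.91%. In set B 24 were over 1.5-fold higher, against 5.14%, and 1, Cxcl10, over 1.5-fold lower, against 6.27%. Over 1.5-fold higher in both sets were 11 of 33 members, namely Isg15, Ifit1, Ifit2, Ifit3, Oas1a, Oas2, Rtp4, Usp18, Bst2, Rsad2 and Cmpk2, against 1.21% of all genes. With clusters made with the interferon genes, made at a lower resolution, or centred within libraries (chosen for these counts after seeing the data), 20, 18 and 12 of 33 members were higher in the mutant library of set A (medians 0.10, 0.10 and -0.17) and 32, 31 and 31 of 34 in set B. The number over 1.5-fold higher in both sets was then 7, 4 and 3. The latter clusterings, at the lower resolution and centred, counted as enterocytes a cluster of 1264 and 1266 cells led by Slc10a2 and Tmigd1, whose counterpart has no name here, and the cause of the difference was not tested. With centring, several clusters lay almost wholly in 1 library, among them a stem-like cluster with 1115 of its 1131 cells from wild type 1. The centred enterocytes numbered 954, 1481, 2416 and 2529 cells, against 578, 753, 2243 and 2022 in the main clusters. The enterocyte values that follow are for the main clusters. Both mutant libraries were above both wild type libraries for 18 of 34 members, against 15.3% of all genes, and below both for none, against 15.7%.

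Ifit1 measured 51.9, 90.4, 27.5 and 65.9 TMM-scaled CPM in enterocytes and Isg15 76.3, 118, 32.6 and 88.9, so mutant 1, not mutant 2, was the highest library for both. Ifit3 measured 10.8, 31.3, 5.56 and 13.9, the steepest ratio in set A among the 8 members named next (1.54 (1.00 to 2.10)). Usp18 measured 19.3, 32.6, 9.52 and 27.5. These 4 genes had no overlap between genotypes, and wild type 2 was the lowest library for each. Rsad2 measured 11.1, 19.3, 7.45 and 24.7, Bst2 8.51, 13.9, 7.07 and 22.8, Trim30a 27.5, 38.8, 12.8 and 51.5 and Ifi44 9.08, 10.7, 3.96 and 25.4. Here mutant 2 was highest and the genotypes again did not overlap, though Ifi44 in set A differed within counting error (0.24 (-0.47 to 0.95)). Ifit2 and Oas2 rested on few UMIs, 5, 15, 10 and 45 and 4, 12, 19 and 41.

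The transcription factors and Parp14 did not follow these effectors in set A. Irf7 measured 93.7, 68.7, 43.4 and 76.1 in enterocytes, Stat2 98.5, 71.7, 50.1 and 83.8 and Parp14 322, 226, 294 and 351. Within set A they were lower in the mutant library, with log2 ratios of -0.45 (-0.69 to -0.21), -0.46 (-0.69 to -0.22) and -0.51 (-0.64 to -0.38). Oasl1, at 95.9, 66.6, 63.3 and 56.1, was lower in the mutant library of both sets. Cxcl10 rested on 6, 10, 72 and 14 UMIs, with wild type 2 highest.

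Without a set term, edgeR called 0 of 11206 genes between genotypes in enterocytes (0.0%) and no member, and DESeq2 likewise called 0 genes. At an unadjusted p under 0.05 edgeR had 258 genes and 15 members. The smallest p among members were those of Rsad2 (log2 1.30, SE 0.30), Bst2 (1.28, SE 0.33) and Ifit2 (1.90, SE 0.52), with an edgeR adjusted p of 0.997 each. With the set as a replicate block, which leaves 1 residual degree of freedom, edgeR called 52 genes (0.464%), 8 of them members, all higher in the mutant. These were Ifit1 (log2 1.04, SE 0.17, adjusted p 0.00675), Ifit3 (1.42), Isg15 (1.05), Trim30a (1.32), Usp18 (1.18), Rsad2 (1.34), Bst2 (1.31) and Ifi44 (1.69, adjusted p 0.0490). With the block, enterocytes from clusters made with the interferon genes gave 21 genes and 2 members (Ifit1 and Ifit3), and enterocytes from clusters at the lower resolution or centred within libraries gave 0 genes. DESeq2 with the same block called 6 genes and none of the members, with adjusted p of 0.207 for Ifit1 and Isg15.

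Other features of the enterocytes differed between the same libraries, and their part in these results was not tested. Genes of the villus bottom (8 genes, among them Reg3b and Reg3g) summed to 22480, 26940, 13060 and 28020 CPM and genes of the villus tip (8 genes) to 4791, 4000, 6312 and 4848. Genes of the proximal intestine summed to 10800, 16520, 21990 and 23470 CPM and those of the distal intestine to 9445, 10500, 7223 and 7423. Lymphocyte markers (10 genes) summed to 13.9, 6.48, 2.68 and 12.5 CPM in enterocytes and to 4.64, 6.38, 4.33 and 7.30 in all epithelial cells. Of these, Ptprc, the gene for CD45, was at 0 UMIs in mutant 1 enterocytes and at most 2.61 CPM elsewhere. Erythrocyte markers (4 genes) summed to 7.53, 1.41, 1.48 and 131 CPM in enterocytes and to 3.25, 25.4, 0.917 and 16.7 in all epithelial cells, there higher in both mutant libraries. B and plasma cell markers (6 genes) summed to 9.27, 1.69, 3.24 and 1.08 CPM in enterocytes and to 1.13, 0.581, 2.29 and 0.303 in all epithelial cells, lower in both mutant libraries. Enterocytes made up 13.6, 7.53, 30.6 and 26.6% of epithelial cells.

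**Figure D2:**
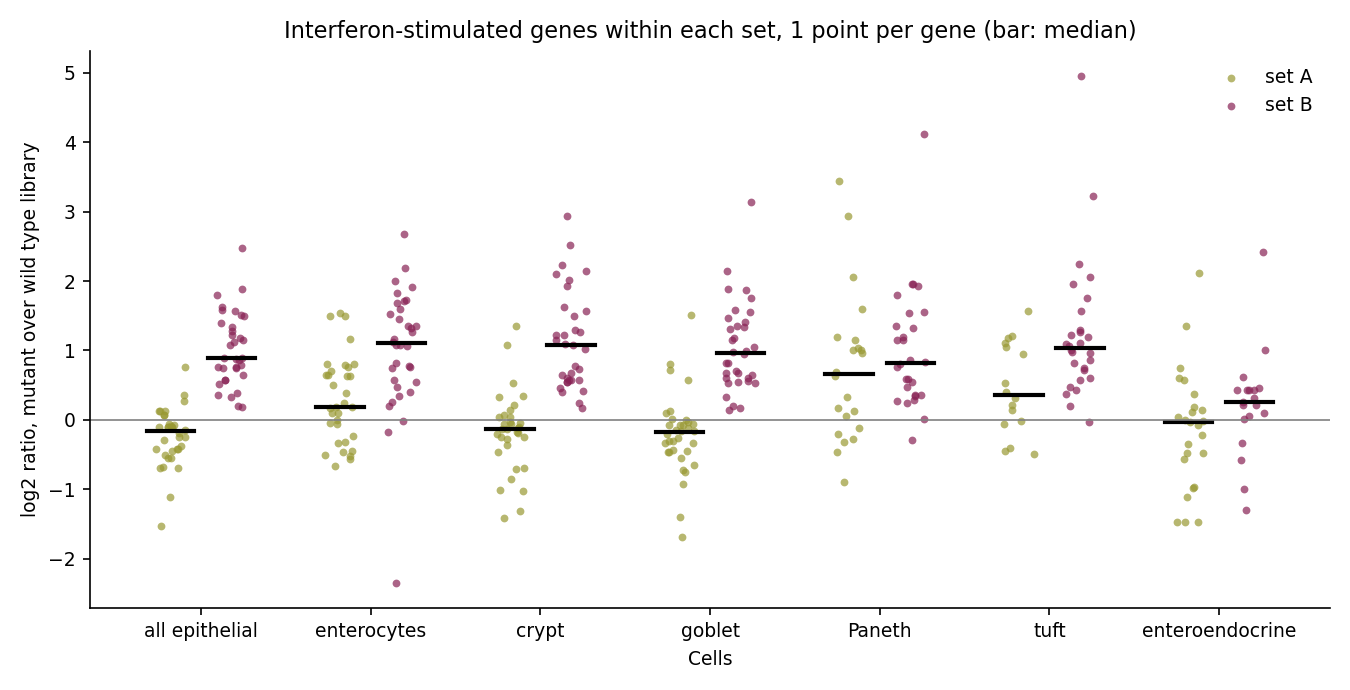
Log2 ratio of the mutant over the wild type library for each gene with at least 10 UMIs in the pair (1 point per gene, bars for medians), by cells and set. Set B medians lie above 0 in every class shown, from 0.25 in enteroendocrine cells to 1.11 in enterocytes, while set A medians run from -0.18 in goblet to 0.66 in Paneth cells.

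In crypt cells the sets again differed in direction. In set B 33 of 33 members were higher in the mutant library (median 1.07), 23 of them over 1.5-fold, against 4.85% of all genes, and 0 over 1.5-fold lower, against 5.58%. In set A 10 of 33 were higher (median -0.13), with 2 over 1.5-fold higher and 7 over 1.5-fold lower, against 3.81% and 5.47%. Rsad2 and Cxcl10 were over 1.5-fold higher in both sets, against 0.771% of all genes, on 5, 12, 5 and 19 and 9, 26, 4 and 27 UMIs. Both mutant libraries exceeded both wild type libraries for 8 members, against 10.7%, and lay below both for none, against 12.0%. Ifi44 measured 1.71, 0.950, 0.962 and 5.49 TMM-scaled CPM in crypt cells, with mutant 2 above the other 3 libraries, against 0.543, 0.546, 0.0852 and 1.48 in Paneth cells, the class with the lowest summed level of the members in plain CPM. Isg15 measured 2.91, 2.67, 1.59 and 7.50 in crypt cells and 0, 1.53, 1.36 and 3.48 in Paneth cells, and at so low a share of cells its crypt level is not read as expression. Iigp1 measured 8.53, 4.22, 2.22 and 6.24, with wild type 1 and mutant 2 high. The edgeR test called 0 of 14072 genes (0.0%; 138 genes and 4 members at an unadjusted p under 0.05, and 0 genes by DESeq2). With the set as a replicate block it called 25 genes (0.178%) and 0 members. Lymphocyte markers summed to 3.96, 12.8, 0.847 and 7.34 CPM in crypt cells, higher in the mutant library of both sets.

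A test of whether the genotype difference itself differed between crypt cells and enterocytes called 0 of 14198 genes and 0 members (edgeR, 0.0%), with 326 genes and 10 members at an unadjusted p under 0.05, and DESeq2 called 0 genes. The members with the smallest p were Cxcl10 (log2 3.21), Bst2 (-0.88) and Ifit2 (-2.16), where a positive value means a larger mutant excess in crypt cells. When 1 library was left out, this test called 5 to 22 genes and 0 to 1 member, the 1 without wild type 1.

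In goblet cells 7 of 34 members were higher in the mutant library of set A and all 34 in set B, with medians of -0.18 and 0.96, where 50.3% and 49.9% of all genes were higher. Gbp2 measured 23.4, 7.28, 5.13 and 18.9 in goblet cells, the same crossing as in the whole epithelium. Paneth cells had 16 of 22 members higher in set A and 27 of 28 in set B, on 44 cells in wild type 1. Tuft cells had 11 of 16 and 27 of 28, and enteroendocrine cells 10 of 25 and 15 of 19. Isg15 in tuft cells measured 7.77, 11.2, 21.0 and 87.2 TMM-scaled CPM, on 4, 7, 21 and 93 UMIs, and Ddx60 5.83, 11.2, 15 and 71.2. Mutant 2 was the highest library for both genes, and in set A a difference was not detectable at this depth. In none of these 4 classes did edgeR call a gene between genotypes (goblet 0.0%, Paneth 0.0%, tuft 0.0% and enteroendocrine cells 0.0%). At an unadjusted p under 0.05 there were 94 to 165 genes per class, with 2, 2, 2 and 0 members in that order, and DESeq2 called 0 genes in each. Leaving out 1 library leaves 1 library in a genotype, and such a fit cannot tell genotype from the level of that library. In tuft cells the median log2 ratio was 1.495 over 29 members without mutant 1, where mutant 2 alone stood for the mutant. Without mutant 2 the tuft median was -0.474 over 18 members. In goblet cells without wild type 2 the median was 0.0041 over 34 members.

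Most members differed between cell classes. Against enterocytes, with the library as a block, edgeR called 27 of 34 members lower and 3 higher in crypt cells, where 34.4% of all 15266 genes were lower and 42.2% higher. The median log2 ratio was -3.27 over the members and 0.20 over all genes. In plain CPM, Ifit1 averaged 59.3 ± 28.2 in enterocytes and 0.799 ± 0.601 in crypt cells (SD, n = 4), a fitted log2 ratio of -6.50 (SE 0.29, adjusted p 4.1e-17). Isg15 averaged 79.3 ± 37.6 and 3.60 ± 2.38 (SD, n = 4; log2 -4.83), and the lowest enterocyte library lay above the highest crypt library. Usp18 (-5.59), Oas3 (-5.56), Rsad2 (-5.56), Ddx60 (-5.32) and Oasl1 (-5.26) were also over 5 log2 units lower in crypt cells. The regulators Irf7 (-4.71) and Stat2 (-3.45) fell with them, Irf9 less so (-1.29). In plain CPM the crypt means of Ifit1, Usp18, Oas3, Rsad2, Ddx60, Oasl1 and Irf7 lay below their Paneth means, for Ifit1 at 0.799 and 1.01. Such crypt levels are not read as expression, and the sizes of these ratios may rest on a floor.

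Against this trend, Ifitm3 was 4.16 log2 units higher in crypt cells (SE 0.24, edgeR adjusted p 4.5e-15), at 413 ± 77.1 CPM against 18.8 ± 6.86 (SD, n = 4). Bst2 was higher by 1.06 and Iigp1 by 0.87, the latter no longer called without wild type 1 (0.63). Irgm1, Gbp3, Gbp2 and Ifit2 did not pass, with log2 ratios of -0.10, -0.64, -1.02 and -0.53. Of these 4, Gbp2 was called lower without wild type 1, without mutant 1, by DESeq2, at the lower resolution and with clusters centred within libraries. Ifit2 and Irgm1 were called lower without wild type 2, and Irgm1 also with clusters made with the interferon genes.

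**Figure D3:**
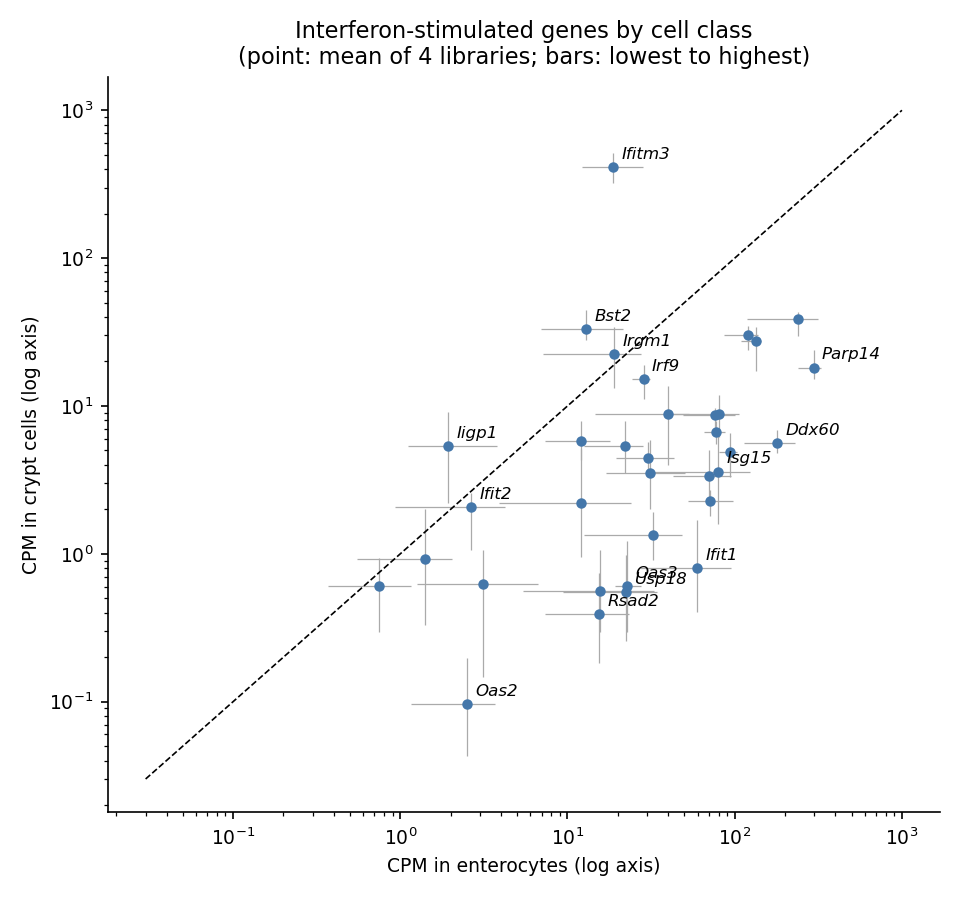
CPM of each gene in crypt cells against enterocytes (both axes logarithmic, points for the mean of 4 libraries, bars from the lowest to the highest library, dashed line for equal levels). Most genes lie below the line, Ifit1 farthest with a log2 ratio of -6.50, while Ifitm3, Bst2 and Iigp1 lie above it and Irgm1 close to it.

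Goblet cells, the mucus producers, had 25 members lower and 4 higher than enterocytes, against 33.3% and 39.0% of all genes. The 4 were Gbp2 (log2 2.87), Ifitm3 (1.5), Bst2 (1.35) and Iigp1 (1.22). Gbp2 averaged 13.6 ± 8.77 CPM in goblet cells and 1.40 ± 0.620 in enterocytes (SD, n = 4). Ddx60 (-0.72), Parp12 (-0.81) and Rsad2 (-0.70) were called lower by small amounts. Rsad2 was no longer called without mutant 1, without mutant 2 or by DESeq2. With clusters made with the interferon genes, at the lower resolution or centred within libraries, neither Rsad2 nor Ddx60 was called, and with the first of these Parp12 was not called (-0.24). Under these 3 clusterings 22, 23 and 23 members were lower and 7, 6 and 7 higher. Gbp3 (1.22 at the lower resolution) and Oas2 (0.87) were called higher under all 3, Oas1a with clusters made with the interferon genes, and Irgm1 with centred clusters.

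Paneth cells, the antimicrobial cells of the crypt base, had 30 members lower and 2 higher, Ifitm3 (3.56) and Bst2 (1.04), against 33.6% and 37.3% of all genes. These ratios are TMM-scaled. In plain CPM Bst2 averaged 10.5 ± 2.73 in Paneth cells and 12.9 ± 6.56 in enterocytes, the opposite order, and Ifitm3 85.8 ± 24.6 and 18.8 ± 6.86 (SD, n = 4). Tuft cells, the chemosensory cells, had 27 lower and 3 higher, against 32.2% and 33.1%. The 3 were Oas2 (2.00, SE 0.40), Ifitm3 (1.66) and Bst2 (0.79), and Bst2 was no longer called without wild type 2, without mutant 2 or with clusters made with the interferon genes. Gbp3 was called higher in tuft cells without wild type 1 and under each of the other 3 clusterings (1.46 to 1.64). Enteroendocrine cells had 30 lower and 0 higher, against 31.9% and 38.0%. Usp18 did not pass there (TMM-scaled log2 0.29, edgeR adjusted p 0.389). In plain CPM Usp18 averaged 43.0 ± 10.7 in enteroendocrine cells and 22.3 ± 10.5 in enterocytes (SD, n = 4). Ifitm3 averaged 40.1 ± 14.7 and 18.8 ± 6.86 and Oas2 2.70 ± 1.17 and 2.49 ± 1.23, while the other members were lower in enteroendocrine cells. The count of 0 higher is thus one of the TMM-scaled fit. With clusters made with the interferon genes, or centred within libraries, Usp18 was called higher in enteroendocrine cells, and at the lower resolution Ifitm3 was (1.57). The ratios of Usp18 were 0.90 and 0.94. Isg15 averaged 2.09 ± 0.259 CPM in the same enteroendocrine cells.

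Summed over the 33 members other than Ifitm3, whose level would dominate the crypt sum, enterocytes reached 2078, 2171, 1301 and 2075 CPM. Goblet cells reached 834, 714, 496 and 797, tuft cells 268, 364, 569.6 and 1111, enteroendocrine cells 374, 357, 347 and 408, crypt cells 307, 269, 200.5 and 314 and Paneth cells 78.0, 122, 104 and 131. Wild type 2 was the lowest library in enterocytes, goblet, crypt and enteroendocrine cells and wild type 1 in tuft and Paneth cells. Tuft cells overlapped with goblet, enteroendocrine and crypt cells in their ranges, and crypt cells lay below enteroendocrine cells in all libraries. Within classes the sum varied by cluster. Goblet cluster 0, of low depth and with the interferon-inducible Ido1 and the member Ddx60 among its 10 leading genes, reached 2970, 3128, 1889 and 2981 CPM, and the other goblet clusters reached 609, 580.1, 409 and 784 and 343, 335, 241 and 426. Among the enterocyte clusters, cluster 17 reached 3068, 3367, 1906 and 3086, cluster 18 1869, 2346, 1499 and 2249, cluster 14 1515, 2087, 868 and 1465 and cluster 15 1142, 1135, 1061 and 1856.

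**Figure D4:**
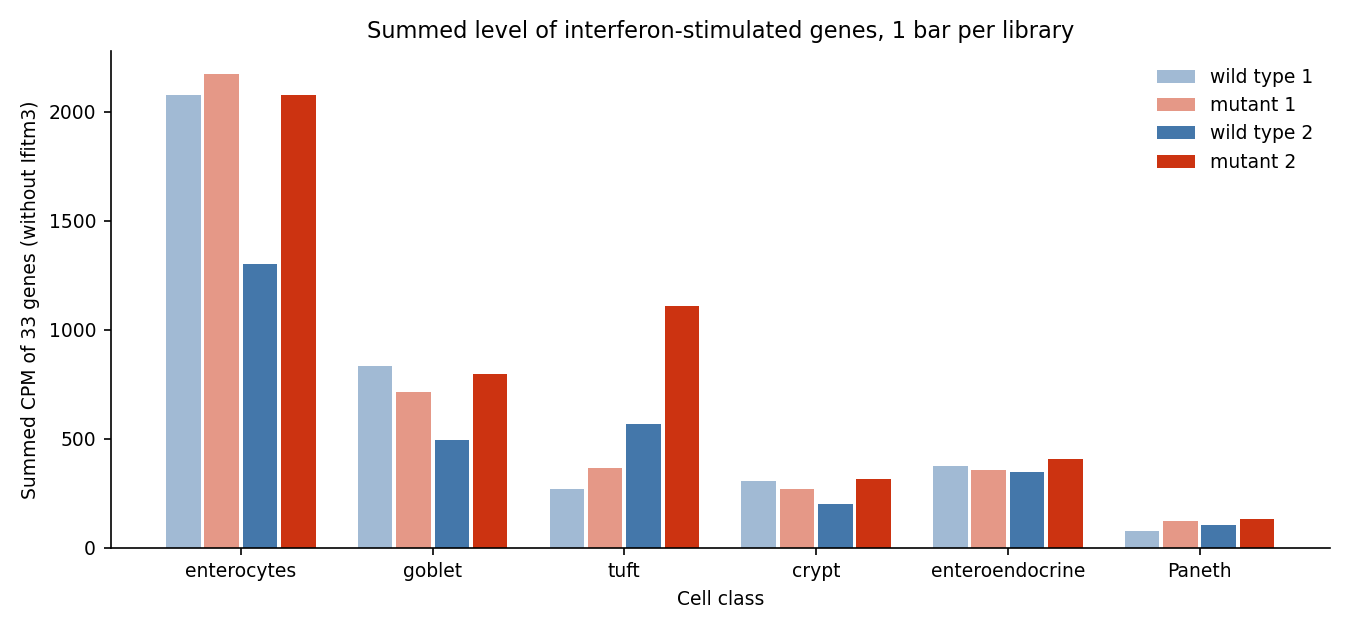
Summed CPM of the 33 genes other than Ifitm3 by class, 1 bar per library (blue wild type, red mutant, pale set A, dark set B). Enterocyte bars stand highest in every library, and wild type 2 is the lowest enterocyte bar at 1301 CPM.

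Within set A the counts varied by enterocyte cluster. In cluster 14, the enterocyte cluster with the deepest cells, 25 of 29 members were higher in mutant 1 (median log2 ratio of plain CPM 0.57) and 29 of 30 in mutant 2 (median 0.93), on 44, 187, 352 and 392 cells. In cluster 17 the counts were 21 of 28 and 29 of 33 (medians 0.27 and 0.96), and in cluster 18 13 of 20 and 22 of 25 (0.34 and 1.02). Cluster 15 had 9 of 20 and 26 of 28 (-0.01 and 1.25). Cluster 10, left without a name because no enterocyte marker was among its 10 leading genes (Slc10a2, Slc13a1, Tmigd1 and Cubn are), had 9 of 26 and 22 of 27 (-0.14 and 0.92), on 320, 357, 124 and 416 cells. These clusters hold 1 library per genotype and set, so no test was made.

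Cell by cell, most enterocytes held a UMI of a member. With every cell thinned to 3000 UMIs, 96.7, 95.3, 92.8 and 97.0% of enterocytes had at least 1 UMI of the 33 members (333, 277, 999 and 1106 cells were deep enough, of 578, 753, 2243 and 2022, and the exact binomial 95% intervals ran from 94.2 to 98.3%, 92.1 to 97.5%, 91.0 to 94.3% and 95.8 to 97.9%). In crypt cells the share was 56.9, 50.2, 43.5 and 56.8%. Paneth cells, set beside these as a reference, had 17.5, 28.4, 36.3 and 34.3%, with median depths before thinning of 89292, 24403, 34455 and 53114 UMIs against 24981, 12412, 14482 and 12896 in crypt cells and 3288, 2058, 2791 and 3232 in enterocytes. A given amount of free RNA makes up less of a deeper cell, so this reference may be too low for the shallower classes. The crypt share lay above the Paneth share in every library, least so in wild type 2, where the Paneth interval ran from 31.0 to 41.9%. The mean number of member UMIs was 7.72, 6.16, 4.13 and 6.71 per enterocyte, so by this measure mutant 1 lay below wild type 1, and 0.909, 0.763, 0.629 and 0.964 per crypt cell. The enterocytes deep enough differed in make-up, with 39, 169, 346 and 382 of them from cluster 14. At least 5 member UMIs were held by 60.7, 46.6, 33.2 and 57.5% of all thinned enterocytes. Within cluster 14 the shares were 38.5, 53.3, 16.8 and 41.9%, so there the order in set A was the reverse. Without thinning the share in enterocytes of wild type 2 was 95% and in crypt cells 87.5%.

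**Figure D5:**
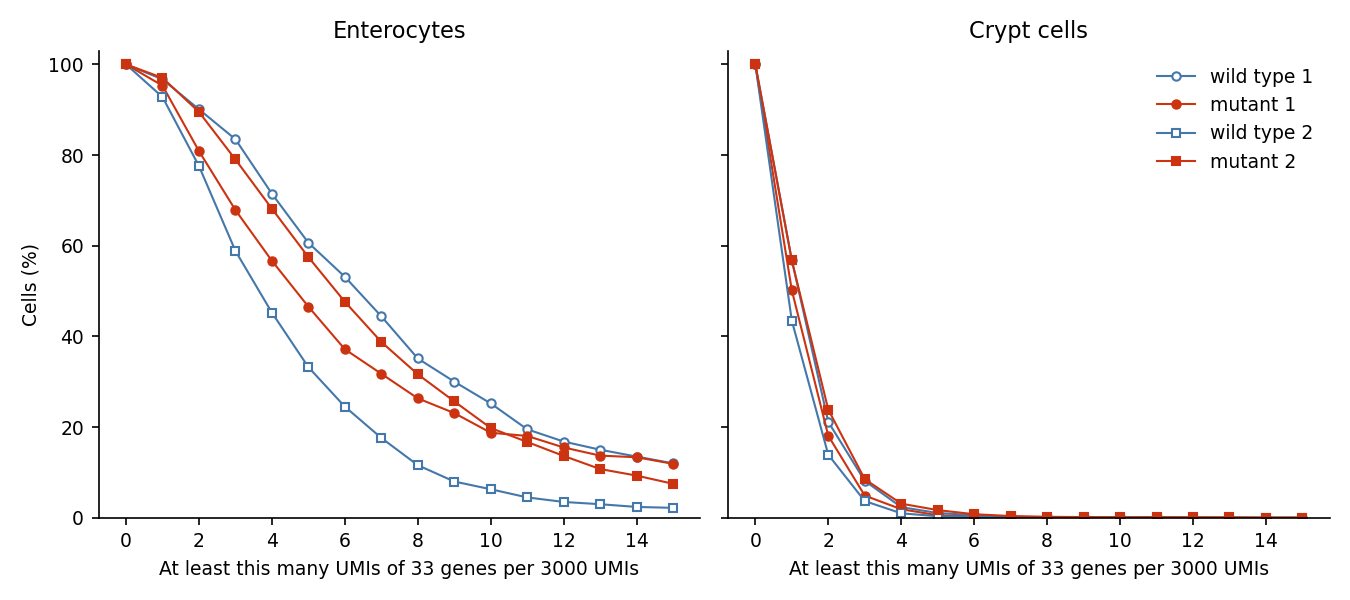
Share of cells (%) with at least a given number of UMIs of the 33 genes after thinning each cell to 3000 UMIs, by library, for enterocytes and crypt cells. At 1 UMI or more the curve of wild type 2 is the lowest in both classes, at 92.8% of enterocytes and 43.5% of crypt cells.

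Isg15 had a UMI in 17.1, 19.5, 6.61 and 15.4% of thinned enterocytes, 1.30, 0.571, 0.293 and 1.93% of crypt cells and, of Paneth cells, in 0.338%, 1.27% and 1.09% of the 3 larger libraries and in 0 of 40 cells in wild type 1 (exact binomial upper bound 8.81%). Paneth cells had the lowest summed level of the members in plain CPM, and their share is only a reference. For shallower cells it may lie below what free RNA can give. The enterocyte share lay above the Paneth share in every library, which alone cannot tell expression from free RNA. The crypt share is not read as expression. Ifit1 had a UMI in 12.6, 23.5, 6.41 and 13.6% of enterocytes and 0.236, 0.238, 0.117 and 0.511% of crypt cells. Among enterocytes both genes were lowest in wild type 2 and highest in mutant 1. Ifitm3 had the opposite layout, at 3.60, 6.50, 4.80 and 5.42% of enterocytes and 52.4, 49.9, 53.5 and 57.3% of crypt cells. The 10% of enterocytes with the most member UMIs held 32.8, 33.3, 31.7 and 30.5% of them.

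The rest of the pathway was read from lists, given as counts. The ligand list holds 10 interferon genes, of which Ifnb1, Ifna1, Ifna2, Ifna4, Ifna5, Ifne and Ifnl2 had 0 UMIs in epithelial cells and in lymphocytes of every library, which allows up to 3 UMIs per library, and Ifnl3 had 1 UMI, in wild type 2. Ifng had 5, 0, 1 and 1 UMIs in the lymphocytes and 1 in epithelial cells of wild type 1, and Ifnk had 11 to 26 UMIs per library in epithelial cells. The remaining gene of the list, Il18, is a cytokine that induces interferon gamma and no interferon itself, and it held nearly all UMIs of the list, at 118, 182, 232 and 221 CPM in enterocytes and 10.9, 11.2, 8.54 and 13.1 in crypt cells. All 6 receptor subunits were lower in crypt cells than in enterocytes by edgeR (median log2 -1.38), among them Ifnlr1, the specific chain of the type III receptor, named after its value was seen (log2 -3.16, SE 0.16), and Ifngr1 of the type II receptor (-0.34). Of 14 signal transduction genes, 11 were lower and 0 higher. Of all 15266 genes in this contrast of crypt cells with enterocytes, 34.4% were lower and 42.2% higher. Of 45 other interferon-stimulated genes tested in that contrast, 33 were lower and 4 higher, namely Isg20, Ifitm2, Tgtp2 and Tor3a (log2 3.60, 3.35, 1.39 and 1.26, named after their values were seen).

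Between genotypes, none of the genes in these lists was called in all epithelial cells. The other interferon-stimulated genes showed the same split by set as the members, with 9 of 47 higher in the mutant library of set A (median log2 ratio -0.25) and 45 of 48 in set B (0.61). In plain CPM, Ifitm2 measured 357, 375, 358 and 344, Lgals9 341, 271, 214 and 274 and Ifi27l2b 284, 183, 211 and 298. Lgals9 and Ifi27l2b crossed between sets, while Ifitm2 hardly moved. MHC class I genes, which present peptides and are raised by interferon, gave a median of -0.13 for set A against 0.62 for set B, MHC class II genes -0.34 and 1.14. The receptors had medians of 0.01 and 0.24.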

How the data were processed

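The authors' deposited UMI counts per gene and barcode are unnormalised, from Cell Ranger 7.0.0 for set A and, per the file headers, 7.1.0 for set B, on mm10 per the submitters' processing notes. For intron counting and cell calling the settings are not given in the sources. Barcodes were kept from 500 genes and 1000 UMIs upward if under 30% of UMIs were mitochondrial. Scrublet's automatic threshold called 0.0670, 12.1, 0.00810 and 0 percent of barcodes, so doublets were set at 0.8% per 1000 barcodes (286, 1525, 1230 and 1230). Clusters came from scanpy 1.11.5 (2000 variable genes, 50 components, 15 neighbours, Leiden resolution 1.0). Values were centred over all cells, a choice made after seeing the data. A name needed at least 3 markers among a cluster's 50 leading genes and a marker among the first 10 of them. UMIs were summed per library and class and tested with edgeR 4.0.16 (quasi-likelihood, TMM, filterByExpr, Benjamini-Hochberg over all genes). DESeq2 1.42.0 was an alternative. Within-set ratios need at least 10 UMIs and none at 0, with exact counting intervals. Intervals and limits cover counting error only. The sets served as a batch term in an alternative fit. The edgeR test without a set term was checked on simulated sums of all epithelial cells and of crypt cells, drawn without a difference between sets. The fit with the set as a block was not checked in this way. Any of the 34 members could be named, and other genes by list and level. The members and lists were chosen with earlier results of these data known.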

Additional observations from a re-analysis of the deposited data

Results flagged for a closer look

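Members were flagged where the mutant library lay below the wild type library in one set and above it in the other, by over 1.5-fold and beyond counting error, in all epithelial cells. With 1 library per genotype and set the difference between sets was not tested. Of 21 members with counting intervals on opposite sides of 0, 4 passed the fold threshold in both sets. The shares of all genes with these patterns were not computed. The log2 ratio of mutant to wild type was -1.53 for set A against 1.62 for set B for Gbp2, -1.12 and 1.88 for Iigp1, -0.69 and 1.51 for Gbp3, and -0.69 and 0.76 for Ifit2. The first 3 are GTPases that type II interferon is known to induce.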

How the results depend on the processing

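With the set as a replicate block, edgeR called 10 genes in all epithelial cells, 52 in enterocytes (8 of them members), 25 in crypt and 3 in Paneth cells. DESeq2 called 8 genes in all epithelial cells, and DESeq2 with the replicate block called 27 there, 6 in enterocytes, 29 in crypt, 4 in goblet, 1 in Paneth and 2 in enteroendocrine cells, none of them a member. Deviations of wild type 1 and mutant 1 from their genotype means correlated at 0.685 over 16744 genes, but no label pairs the libraries. Leaving out 1 library at a time gave 0 to 6 called genes in enterocytes, 0 to 1 in crypt, 0 to 16 in goblet, 0 to 29 in tuft and 0 to 2 in enteroendocrine cells. In tuft cells it gave 0 to 4 members, and for the interaction 5 to 22 genes and 0 to 1 member. The lone library left in a genotype is then assumed to vary like the other. With the block this leaves no residual degrees of freedom and was not run. The member count over 1.5-fold higher in both sets of enterocytes was 7 with clusters made with the interferon genes, 4 at Leiden resolution 0.5 and 3 with clusters centred within libraries, against 11. The median of set A moved from 0.19 to 0.10, 0.10 and -0.17 in that order. With the replicate block and clusters made with the interferon genes, edgeR called 21 genes in enterocytes, 2 of them members, and 0 genes with the other clusterings. Apart from the first of these medians, these alternatives were chosen after seeing the data, and the cause was not tested. Cxcl10 in Paneth cells against enterocytes reversed, to 0.33 with clusters made with the interferon genes and 0.20 with clusters centred within libraries, and the cause was not tested. In Paneth cells of the main clusters Cxcl10 averaged 0.0178 CPM and reached at most 0.0713 in a library, so this ratio rests on values near the floor. In plain CPM the Paneth median was 0.89 for set A against 0.54 for set B, and it was 1.00 for set A without doublet removal, which put the enteroendocrine median of set B at 0.67. In all epithelial cells of set A, Usp18 changed sign in plain CPM and without doublet removal (-0.03 each), as did Trim30a in plain CPM (-0.03). Thinned to 6000 UMIs, shares of cells with a member UMI were 99.0, 97.9, 97.0 and 98.8% in enterocytes and 78.3, 76.2, 66.8 and 80.3% in crypt cells. Without thinning they were 95% in wild type 2 and 98.1% in mutant 2 enterocytes and 93.2, 84.2, 87.5 and 89.9% in crypt cells. Tuft and enteroendocrine sums held the fewest UMIs of the named classes, 500312 to 1130600 and 835823 to 1483582 per library, which limits their ratios. Paneth sums were deeper, and the few member UMIs there go with low levels in plain CPM. In the TMM-scaled edgeR fits the median log2 ratio of the members against enterocytes was -2.80 in Paneth, -3.27 in crypt and -2.88 in enteroendocrine cells. Paneth cells were thus not the lowest class by that measure.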
